A study of Mus musculus with 9 samples.

Results

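The genes described here are Ly6a, Ly6c1, Ly6c2, Ly6e and AB124611, 5 of the 23936 named genes in an RNA sequencing table of mouse OT-I CD8 T cells. They were chosen by symbol as Ly6-type surface proteins together with AB124611, and their FPKM differences between the 3 groups of these libraries were known when the set was proposed, so the levels and differences of these 5 genes are given as a description, without p-values. All 5 reached 1 FPKM in at least 3 libraries, the condition for entering the fit over all genes. FPKM express the sequenced fragments of a gene relative to transcript length and library size.

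The table holds 9 libraries in 3 groups of 3. MLN-primed cells came from the MLN, taken here as the mesenteric lymph nodes that drain the gut, and their sample titles carry the word oral. Spleen-primed cells came from the spleen and their titles carry the letters iv. Naive cells came from the spleen without a priming label. All 9 libraries are labelled as OT-I cells, which carry a transgenic T cell receptor for an ovalbumin peptide presented by H-2Kb. The age and sex of the mice, the priming agent, the time after priming, the sorting gate and the animals behind a library are not stated in the labels used here. The primed groups differ in organ and in title wording at once, which cannot be told apart, and the spread between libraries may be technical.

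Ly6 proteins are small extracellular proteins with a compact fold held by disulphide bonds, and most are tied to the outer membrane by a glycosylphosphatidylinositol (GPI) anchor. Mouse Ly6C, the product of Ly6c1 and Ly6c2, marks monocytes and also antigen-experienced CD8 T cells, while Ly6A, better known as Sca-1, marks mouse haematopoietic stem cells and is displayed by activated T cells. Ly6E is a broadly expressed relative studied for its effect on virus entry. Several mouse Ly6 genes are known to respond to interferons. AB124611 is named in the annotation after a cDNA clone, and nothing in the files or the annotation used here gives it a role or calls it a Ly6 gene.

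All members but AB124611 lie together on chromosome 15 in build GRCm38.p6. Ly6e is at chr15:74955025-74959904 on the plus strand, and Ly6a at chr15:74994877-74998031, Ly6c1 at chr15:75044018-75048920 and Ly6c2 at chr15:75108161-75112066 are on the minus strand. They span 157 kb, with 59.2 kb between Ly6c1 and Ly6c2. AB124611 is elsewhere, at chr9:21526114-21545333 on the plus strand. All 5 are annotated as protein coding.

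Ly6c1 and Ly6c2 have nearly the same coding sequence, and how shared fragments were divided between them can affect their separate levels. Their coding sequences, 396 bases each in the GENCODE annotation, were identical at 387 positions (97.7%), with a longest identical run of 188 bases. The first 180 coding bases hold 6 of the 9 differences, shown in capitals.

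Ly6c1: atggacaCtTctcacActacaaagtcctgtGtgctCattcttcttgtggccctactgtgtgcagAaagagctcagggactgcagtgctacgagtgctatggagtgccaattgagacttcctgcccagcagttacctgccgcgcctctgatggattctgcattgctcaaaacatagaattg
Ly6c2: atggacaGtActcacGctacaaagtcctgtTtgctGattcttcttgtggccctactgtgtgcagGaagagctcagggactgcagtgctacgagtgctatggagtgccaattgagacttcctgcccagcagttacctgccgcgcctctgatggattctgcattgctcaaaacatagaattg

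The other coding sequences were less alike. Ly6a matched Ly6c1 over 82.0%, Ly6c2 over 81.7% and Ly6e over 49.6% of all alignment columns, in which gaps count as mismatches. AB124611 matched the others over 32.9% to 34.7%. Gaps lower these last values, because its coding sequence is longer, at 681 bases against 396 to 411. Of all stretches of 50 bases in the annotated transcripts of Ly6c2, 33.0% also occurred in a transcript of another gene, nearly all of them in Ly6c1. The share was 28.0% for Ly6c1 and 10.04% for Ly6a, and it was 0 for Ly6e and for AB124611. The levels of Ly6c1 and Ly6c2 apart from each other are therefore uncertain, while Ly6e and AB124611 have no such overlap.

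The stretches directly before the starts of Ly6c1 and Ly6c2 are shown because the 2 genes varied together over the libraries. They come from the RefSeq promoter table of build GRCm38.p6 and run 5′ to 3′ on the minus strand, at chr15:75048921-75049087 for Ly6c1 and chr15:75112067-75112221 for Ly6c2. Capitals mark bases that differ or have no partner in the alignment, in which 99 of 188 columns (52.7%) were identical.

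Ly6c1: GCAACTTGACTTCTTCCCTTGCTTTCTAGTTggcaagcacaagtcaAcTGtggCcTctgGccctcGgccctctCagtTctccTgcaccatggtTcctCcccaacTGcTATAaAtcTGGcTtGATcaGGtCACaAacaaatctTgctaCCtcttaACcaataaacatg
Ly6c2: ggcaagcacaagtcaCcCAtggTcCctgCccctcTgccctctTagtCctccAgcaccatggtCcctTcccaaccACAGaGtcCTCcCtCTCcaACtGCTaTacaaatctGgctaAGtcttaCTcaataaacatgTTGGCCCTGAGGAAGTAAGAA

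These columns include the bases at the ends of the 2 windows that have no partner, because the windows are offset. The percentage is therefore lower than in the overlapping part alone and cannot be set directly against the coding identity. Interferon-related motifs were searched on both strands of the promoter table. The gamma-activated site, spelled TTCNNNGAA, occurred in 8.30% of 32851 promoters, and the interferon-stimulated response element, spelled GAAA followed by any 2 bases and GAAA, in 3.44%. Neither set of letters was in the 2 Ly6c1, the 2 Ly6c2 or the 1 AB124611 promoters of the table, which says only that these letters are not in those windows. Ly6a and Ly6e had no entry.

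Before the members, the libraries were checked against their labels. The FPKM of a library added up to between 612887 and 720165, with 9469 to 9667 genes at 1 FPKM or more. Read depth is unknown, because FPKM do not keep it. The summed level of 8 CD8 T cell markers was 2043 to 2130 FPKM in MLN-primed, 2979 to 3061 in spleen-primed and 3763 to 4126 in naive libraries. All 9 libraries thus held transcripts of the labelled cell type.

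Ly6c2 was the most abundant member in spleen-primed cells. It measured 421, 227 and 284 FPKM in the MLN-primed libraries, 1417, 1220.5 and 1200.1 FPKM in the spleen-primed libraries, and 66.7, 191 and 119 FPKM in the naive libraries. No pair of groups overlapped, and the naive libraries were the least even, with 2.86-fold between the highest and the lowest. The means were 310.7 ± 99.4 FPKM in MLN-primed, 1279 ± 119.5 in spleen-primed and 125 ± 62.2 in naive cells (SD, n = 3 each, as for every error on a mean below). The ratio of means put MLN-primed 4.12-fold below spleen-primed cells, spleen-primed 10.2-fold above naive cells and MLN-primed 2.48-fold above naive cells. By mean FPKM, Ly6c2 stood at rank 293 of 23936 genes in MLN-primed, rank 100 in spleen-primed and rank 483 in naive cells.

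Differences on the log2(FPKM + 1) scale come from one limma fit over all 9 libraries, and their errors are standard errors of that fit. For Ly6c2 the difference was -2.08 ± 0.33 for MLN-primed against spleen-primed, 3.46 ± 0.33 for spleen-primed against naive and 1.38 ± 0.33 for MLN-primed against naive cells. MLN-primed cells therefore held a level between those of the spleen-primed and the naive cells, nearer to naive on this scale. The last difference was the least even, at 0.99 without naive 1, 1.74 without naive 2 and 0.80 after quantile normalisation of all libraries.

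Ly6c1 followed the same order at a lower level per length. It measured 23.5, 13.5 and 17.3 FPKM in the MLN-primed libraries, 83.4, 73.8 and 67.2 FPKM in the spleen-primed libraries, and 4.26, 11.8 and 6.86 FPKM in naive libraries. No pair of groups overlapped, and the highest naive library was again naive 2 and the highest MLN-primed library MLN-primed 1. Means were 18.1 ± 5.03 FPKM in MLN-primed, 74.8 ± 8.15 in spleen-primed and 7.64 ± 3.82 in naive cells. On the log2 scale the differences were -2.02 ± 0.29 for MLN-primed against spleen-primed, 3.22 ± 0.29 for spleen-primed against naive and 1.21 ± 0.29 for MLN-primed against naive cells.

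The 2 Ly6c genes kept a nearly fixed proportion. Ly6c1 amounted to 5.58%, 5.93% and 6.10% of the Ly6c2 level in MLN-primed libraries, 5.89%, 6.05% and 5.60% in spleen-primed libraries, and 6.39%, 6.18% and 5.78% in naive libraries. The percentage thus varied 1.15-fold over 9 libraries while Ly6c2 itself varied 21.2-fold. Summing both into 1 feature gave log2 differences of -2.08, 3.46 and 1.38 for MLN-primed against spleen-primed, spleen-primed against naive and MLN-primed against naive cells, the same as for Ly6c2 alone at this rounding. Whether the constant proportion belongs to the genes or to the division of shared fragments was not tested.

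**Figure D1:**
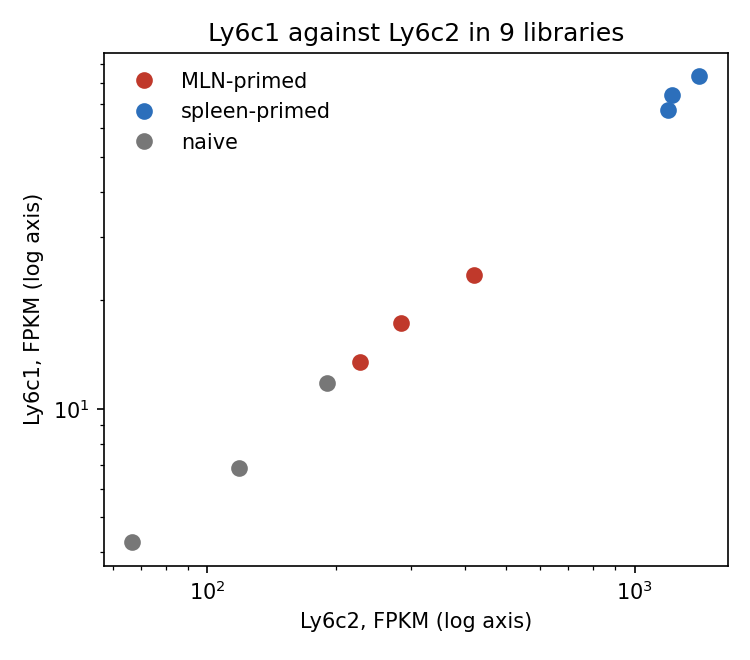
Ly6c1 against Ly6c2 in FPKM on log axes, 1 point per library, coloured by group. The 9 points lie close to a line, with Ly6c1 at 5.58% to 6.39% of Ly6c2 and the 3 spleen-primed libraries at the upper end.

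Ly6a, the gene of Sca-1, differed far more between primed and naive cells than between the primed groups. It measured 387, 338 and 316 FPKM in the MLN-primed libraries, 469, 434 and 421 FPKM in the spleen-primed libraries, and 59.8, 52.3 and 40.6 FPKM in naive libraries. All MLN-primed libraries were below all spleen-primed libraries, and every primed library was above every naive one. Means were 347 ± 36.1 FPKM in MLN-primed, 441 ± 24.9 in spleen-primed and 50.9 ± 9.67 in naive cells. The log2 difference was -0.35 ± 0.13 for MLN-primed against spleen-primed, 3.11 ± 0.13 for spleen-primed against naive and 2.76 ± 0.13 for MLN-primed against naive cells. As ratios of means, spleen-primed cells were 8.67-fold and MLN-primed cells 6.82-fold above naive cells, while MLN-primed cells were 1.27-fold below spleen-primed cells.

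Ly6e was abundant in all groups and varied least. It measured 371, 419 and 382 FPKM in the MLN-primed libraries, 455, 449.7 and 503 FPKM in the spleen-primed libraries, and 353, 369 and 361 FPKM in naive libraries. The spleen-primed libraries stood above the others without overlap, while the lowest MLN-primed library, at 370.9 FPKM, was barely above the highest naive library, at 369.4 FPKM. Means were 390.5 ± 25.04 FPKM in MLN-primed, 469 ± 29.5 in spleen-primed and 361 ± 8.43 in naive cells. The log2 difference for MLN-primed against spleen-primed cells was -0.26 ± 0.07. Against naive cells it was 0.38 ± 0.07 for spleen-primed and 0.11 ± 0.07 for MLN-primed cells as deposited, but quantile normalisation turned these to -0.33 and -0.53, and median-of-ratios scaling turned the MLN-primed value to -0.060. The direction of Ly6e against naive cells therefore depends on the scaling. By mean FPKM it ranked 242 in MLN-primed, 215 in spleen-primed and 174 in naive cells.

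AB124611 ran the other way between naive and primed cells. It measured 6.43, 5.78 and 6.60 FPKM in the MLN-primed libraries, 26.1, 30.8 and 28.5 FPKM in the spleen-primed libraries, and 119, 126 and 118 FPKM in naive libraries. The groups were widely apart compared with the spread inside each. Means were 6.27 ± 0.431 FPKM in MLN-primed, 28.4 ± 2.33 in spleen-primed and 120.8 ± 4.71 in naive cells. The log2 difference was -2.02 ± 0.08 for MLN-primed against spleen-primed, -2.05 ± 0.08 for spleen-primed against naive and -4.07 ± 0.08 for MLN-primed against naive cells. MLN-primed cells were 19.3-fold and spleen-primed cells 4.25-fold below naive cells by the ratio of means, and its rank was 6597 in MLN-primed, 2772 in spleen-primed and 505 in naive cells.

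**Figure D2:**
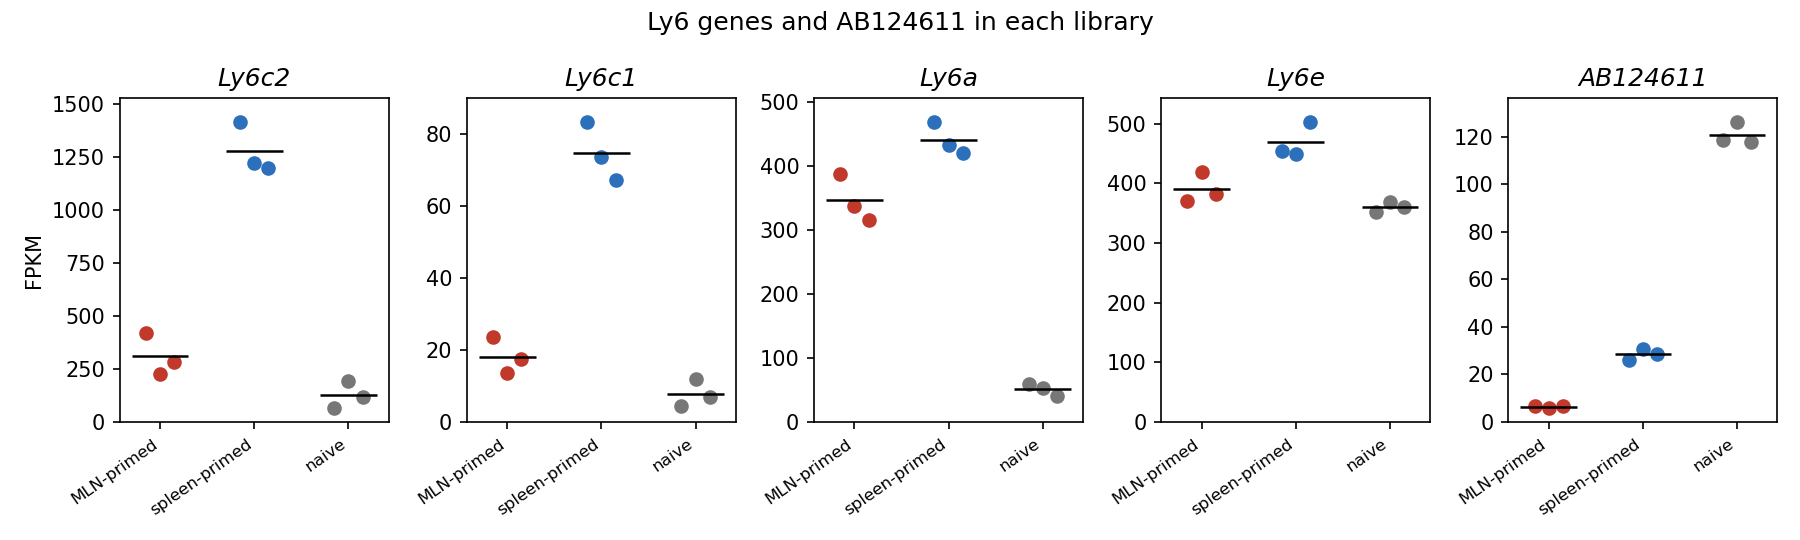
FPKM of each member in each library, with 1 point per library and a line at the group mean, in a panel with its own axis from 0. Spleen-primed libraries are highest for Ly6c2, Ly6c1, Ly6a and Ly6e as deposited, and naive libraries are highest for AB124611. After quantile normalisation Ly6e is lower in both primed groups than in naive cells, and after median-of-ratios scaling it is lower in MLN-primed than in naive cells.

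The order of the groups therefore differed among the members. For Ly6c2, Ly6c1 and Ly6a it was spleen-primed, MLN-primed and naive from high to low. Ly6e had that order as deposited, but under quantile normalisation naive cells were highest, and MLN-primed and naive cells were the closest neighbours as deposited. For AB124611 the order was naive, spleen-primed and MLN-primed. Within the summed FPKM of the 5 genes, Ly6c2 made up 34.8%, 22.6% and 28.2% in MLN-primed libraries, 57.8%, 55.3% and 54.1% in spleen-primed libraries, and 11.1%, 25.4% and 18.4% in naive libraries.

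Set against all tested genes, the counts were as follows. Between the primed groups all 5 members were lower in the MLN-primed libraries, without overlap, where 21.0% of the 10185 tested genes were, and 4 were lower at an adjusted p below 0.05 in the limma fit, where 13.1% were. Ly6a did not pass, and Ly6e no longer did so without MLN-primed 1, MLN-primed 3 or spleen-primed 3, or after quantile normalisation (-0.20). Ly6a did pass without MLN-primed 1, without naive 1 or without naive 3, and when the fit was restricted to the primed libraries. Over all genes 1760 were higher and 1333 lower, and leaving out spleen-primed 2 left 884 lower. Since these contrasts were known when the members were picked, nothing is read from the members' counts.

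In spleen-primed against naive cells 4 members were higher and 1 was lower by the adjusted p and also without overlap. Among all tested genes 43.1% were higher and 32.7% lower by the adjusted p, and 44.5% were higher and 33.7% lower without overlap. Quantile normalisation gave 3545 genes higher and 4070 lower in this comparison, in place of 4387 and 3331, and Ly6e changed sides with it. In MLN-primed against naive cells 3 members were higher and 1 lower by the adjusted p, and 4 were higher and 1 lower without overlap. Of all tested genes, 45.5% were higher and 33.2% lower by the adjusted p, and 45.8% and 34.6% without overlap. Ly6e was the member that did not pass in this comparison as deposited, and under quantile normalisation it passed as lower. Both comparisons use the same 3 naive libraries.

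**Figure D3:**
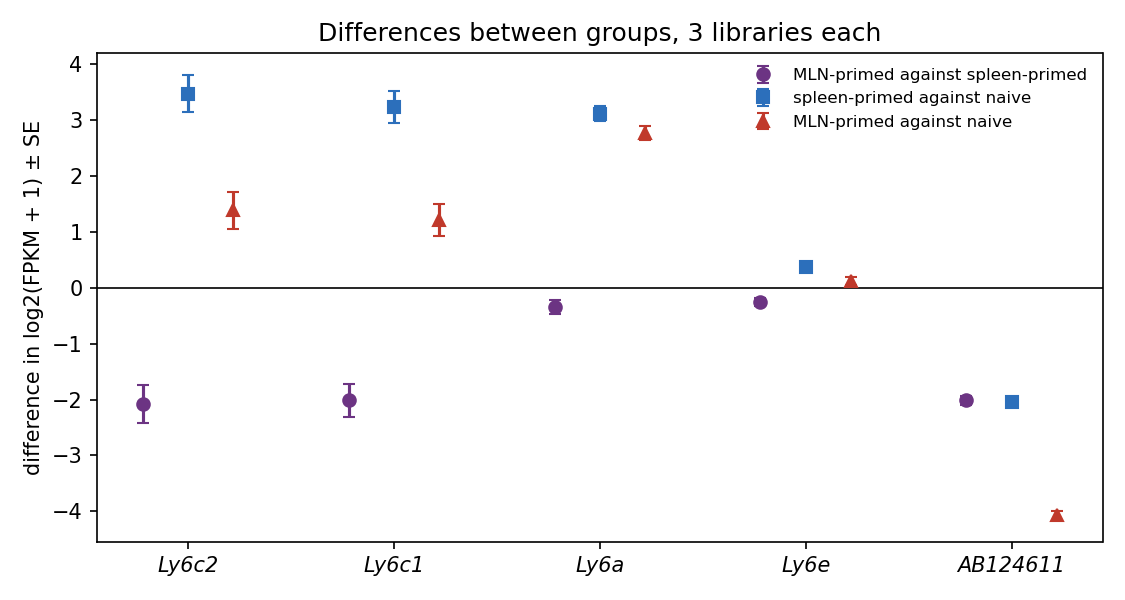
Differences in log2(FPKM + 1) of each member for the 3 comparisons, with bars of 1 standard error from the limma fit, 3 libraries a group. Ly6c2 lies at -2.08 for MLN-primed against spleen-primed and 3.46 for spleen-primed against naive cells, Ly6e lies nearest to 0, and AB124611 is negative in all 3 comparisons. The Ly6e points against naive cells change sign under quantile normalisation, and the MLN-primed point also under median-of-ratios scaling.

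The neighbours of the Ly6 genes on chromosome 15 were mostly at or near 0. From Psca to Ly6l the annotation has 24 protein-coding genes, of which 20 have values in the table. Of the 16 that are not members, 10 were listed at 0 in every library and 2 reached 1 FPKM in any library. Them6, at up to 28.3 FPKM, and Ly6k, at up to 2.86 FPKM, were these 2. The other 4 annotated genes, Ly6a2, Ly6g, Ly6g2 and Ly6l, were not analysed here.

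The other genes of the Ly6 and urokinase receptor family gave few values as well. Of 33 with a row under the listed names, 29 stayed below 1 FPKM in all libraries and 3 were tested. All 3 fell in both primed groups against naive cells. Plaur, the urokinase receptor gene, averaged 0.00802 ± 0.0139 FPKM in MLN-primed, 0.0200 ± 0.0347 in spleen-primed and 7.76 ± 2.61 in naive cells (limma, adjusted p = 6.8e-08 for MLN-primed and 9.23e-08 for spleen-primed against naive). Lypd6b averaged 0.128 ± 0.0627 FPKM in MLN-primed, 0.139 ± 0.132 in spleen-primed and 11.9 ± 2.08 in naive cells (limma, adjusted p = 4.19e-09 and 5.09e-09 for these 2 comparisons). Of the 3, Ly6k was the 1 that passed between the primed groups, at 1.75 ± 0.426 FPKM in MLN-primed cells against 0.442 ± 0.362 in spleen-primed ones (log2 difference 0.95 ± 0.17, limma, adjusted p = 0.00233). Its naive level was 2.77 ± 0.089 FPKM, and the fall in MLN-primed against naive cells, of -0.47 on the log2 scale, was not called when MLN-primed 1, MLN-primed 3 or any 1 naive library was left out.

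Other GPI-linked surface proteins moved in both directions. Of 17 tested, 1 was higher and 4 were lower in MLN-primed against spleen-primed cells, where 17.3% of all tested genes were higher and 13.1% lower. The median log2 difference was 0.02, against 0.03 for all tested genes. Cd52, which encodes a very short and heavily glycosylated GPI-linked peptide of lymphocytes, averaged 1588 ± 100.1 FPKM in MLN-primed cells, against 3081 ± 202 in spleen-primed cells (log2 difference -0.96 ± 0.08, limma, adjusted p = 4.86e-05). Its naive level was 1771 ± 50.2 FPKM. Against naive cells Cd52 was higher in spleen-primed cells (0.80, limma, adjusted p = 8e-06) and did not pass in MLN-primed cells (-0.16, limma, adjusted p = 0.0899). Thy1, the T cell surface antigen Thy-1, averaged 678 ± 52.3 FPKM in MLN-primed and 871 ± 38.3 in spleen-primed cells (-0.36 ± 0.08, limma, adjusted p = 0.00648). In naive cells Thy1 averaged 734 ± 37.7 FPKM, which spleen-primed cells exceeded (0.25, limma, adjusted p = 0.015), while MLN-primed cells did not pass (-0.12, limma, adjusted p = 0.191). Nt5e, the gene of the ecto-enzyme CD73 that makes adenosine, was the 1 that was higher, at 4.45 ± 0.235 FPKM in MLN-primed cells, against 1.22 ± 0.278 in spleen-primed cells (1.30 ± 0.20, limma, adjusted p = 0.00114). Its naive level was 3.46 ± 1.41 FPKM. Against naive cells Nt5e was lower in spleen-primed cells (-0.97, limma, adjusted p = 0.00132) and did not pass in MLN-primed cells (0.34, limma, adjusted p = 0.143).

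Against naive cells 6 of these 17 were higher and 9 lower in spleen-primed cells, and 4 were higher and 8 lower in MLN-primed cells. Over all tested genes the shares were 43.1% higher and 32.7% lower for spleen-primed cells, and 45.5% higher and 33.2% lower for MLN-primed cells. Their median log2 difference was -0.50 for spleen-primed and -0.19 for MLN-primed cells, against 0.10 and 0.15 for all tested genes. Cd48, a ligand of the receptor CD244, averaged 617 ± 83.0 FPKM in MLN-primed, 778 ± 99.6 in spleen-primed and 183 ± 44.3 in naive cells. Cd160, a receptor of cytotoxic lymphocytes, averaged 35.1 ± 1.70 FPKM in MLN-primed, 36.1 ± 1.17 in spleen-primed and 5.86 ± 0.462 in naive cells. Both rose against naive cells. For Cd48 the log2 difference was 1.77 in MLN-primed and 2.10 in spleen-primed cells (limma, adjusted p = 7.1e-06 and 2.38e-06), and for Cd160 it was 2.40 in MLN-primed and 2.44 in spleen-primed cells (limma, adjusted p = 1.61e-09 and 1.53e-09). Cd55, which protects cells from complement, fell in both, to 5.33 ± 0.322 FPKM in MLN-primed and 5.84 ± 0.152 in spleen-primed cells, against 54.2 ± 5.46 in naive cells (limma, adjusted p = 7.33e-10 for MLN-primed and 1.04e-09 for spleen-primed cells).

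The genes that build and attach the GPI anchor were counted in the same way. Of 31 tested, 3 were higher and 3 lower in MLN-primed against spleen-primed cells, and 25 did not pass, where 17.3% of all tested genes were higher and 13.1% lower. Against naive cells 13 were higher and 7 lower in spleen-primed cells, and 13 were higher and 8 lower in MLN-primed cells. Of all tested genes 43.1% were higher and 32.7% lower in spleen-primed cells, and 45.5% were higher and 33.2% lower in MLN-primed cells. Gpaa1, a subunit of the transamidase that attaches the anchor, averaged 19.5 ± 0.965 FPKM in MLN-primed, 15.9 ± 0.254 in spleen-primed and 4.76 ± 0.172 in naive cells. Pigf, which takes part in the addition of ethanolamine phosphate, averaged 28.2 ± 1.91 FPKM in MLN-primed, 23.3 ± 0.831 in spleen-primed and 7.92 ± 1.14 in naive cells. Mppe1, a phosphodiesterase that trims the anchor after attachment, fell to 7.71 ± 0.141 FPKM in MLN-primed and 12.3 ± 0.848 in spleen-primed cells, against 31.5 ± 1.41 in naive cells (limma, adjusted p = 6.88e-09 for MLN-primed and 1.47e-07 for spleen-primed cells). Medians of the list were -0.02, 0.13 and 0.17 on the log2 scale for MLN-primed against spleen-primed, spleen-primed against naive and MLN-primed against naive cells, against 0.03, 0.10 and 0.15 for all tested genes.

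Interferon receptors and their signalling genes were mostly lower in MLN-primed cells when set against spleen-primed ones. Of 16 tested, 10 were lower, 0 were higher and 6 did not pass, with a median log2 difference of -0.53 beside 0.03 for all tested genes. Over all tested genes 13.1% were lower and 17.3% higher in this comparison. Usp18, a brake on the type I interferon receptor, averaged 1.05 ± 0.101 FPKM in MLN-primed and 3.56 ± 0.469 in spleen-primed cells (-1.15 ± 0.10, limma, adjusted p = 6.91e-05). Irf9, a subunit of the factor that binds the interferon response element, averaged 11.3 ± 0.190 FPKM in MLN-primed and 22.4 ± 1.14 in spleen-primed cells (-0.93 ± 0.11, limma, adjusted p = 0.000401). Jak1, a kinase of both receptor types, averaged 114 ± 15.9 FPKM in MLN-primed and 201 ± 14.1 in spleen-primed cells (-0.82 ± 0.10, limma, adjusted p = 0.000365).

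Against naive cells 10 of the 16 were lower and 3 higher in spleen-primed cells, and 15 were lower and 0 higher in MLN-primed cells. The shares of all tested genes were 32.7% lower and 43.1% higher in spleen-primed cells, and 33.2% lower and 45.5% higher in MLN-primed cells. The 3 higher ones in spleen-primed cells were 0 under median-of-ratios scaling, under quantile normalisation and without spleen-primed 2, and 1 without naive 1, naive 3 or spleen-primed 3. Ifngr2, a chain of the interferon gamma receptor, averaged 0.0525 ± 0.0293 FPKM in MLN-primed, 0.0760 ± 0.0213 in spleen-primed and 17.4 ± 0.723 in naive cells. Socs3, a feedback inhibitor of cytokine signalling, averaged 1.22 ± 0.149 FPKM in MLN-primed, 2.21 ± 0.263 in spleen-primed and 31.4 ± 4.69 in naive cells. Both fell in both primed groups against naive cells, with log2 differences of -4.13 in MLN-primed and -4.09 in spleen-primed cells for Ifngr2 (limma, adjusted p = 4.79e-11 and 5.88e-11) and of -3.86 and -3.33 in the same groups for Socs3 (limma, adjusted p = 1.29e-09 and 4.05e-09).

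Interferon-stimulated genes other than the Ly6 genes, 43 tested, included many that were lower in MLN-primed cells. In MLN-primed against spleen-primed cells 27 were lower, 0 were higher and 16 did not pass, where 13.1% of all tested genes were lower and 17.3% higher. The median log2 difference was -0.56, against 0.03 for all tested genes. Zbp1, a sensor of Z-form nucleic acid, averaged 20.2 ± 3.03 FPKM in MLN-primed and 47.3 ± 1.85 in spleen-primed cells (-1.20 ± 0.11, limma, adjusted p = 9.77e-05). Isg15, a ubiquitin-like modifier, averaged 4.22 ± 0.705 FPKM in MLN-primed and 9.70 ± 0.914 in spleen-primed cells (-1.04 ± 0.18, limma, adjusted p = 0.00243). Ifi47, an interferon-induced GTPase, averaged 47.7 ± 4.90 FPKM in MLN-primed and 99.5 ± 9.62 in spleen-primed cells (-1.05 ± 0.13, limma, adjusted p = 0.000406).

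Most of this list was lower in primed than in naive cells, while Ly6a, Ly6c1 and Ly6c2 were higher. In spleen-primed against naive cells 25 fell and 8 rose, with a median of -0.46, and in MLN-primed against naive cells 33 fell and 4 rose, with a median of -1.01. Over all tested genes 32.7% were lower and 43.1% higher in spleen-primed cells, with a median of 0.10. For MLN-primed cells the shares were 33.2% lower and 45.5% higher, with a median of 0.15. Rtp4, a chaperone of membrane receptors, fell to 0.870 ± 0.155 FPKM in MLN-primed and 2.25 ± 0.336 in spleen-primed cells, against 26.3 ± 7.81 in naive cells (limma, adjusted p = 3.44e-08 for MLN-primed and 2.46e-07 for spleen-primed cells). Among those that rose, Phf11b averaged 86.1 ± 7.44 FPKM in MLN-primed, 109 ± 1.15 in spleen-primed and 26.0 ± 1.89 in naive cells. Psmb9, a subunit of the immunoproteasome, averaged 202 ± 17.8 FPKM in MLN-primed, 284 ± 27.1 in spleen-primed and 102 ± 4.81 in naive cells, so it shared the order of Ly6c2. The counts describe these lists beside the members, and no link between them was tested.

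**Figure D4:**
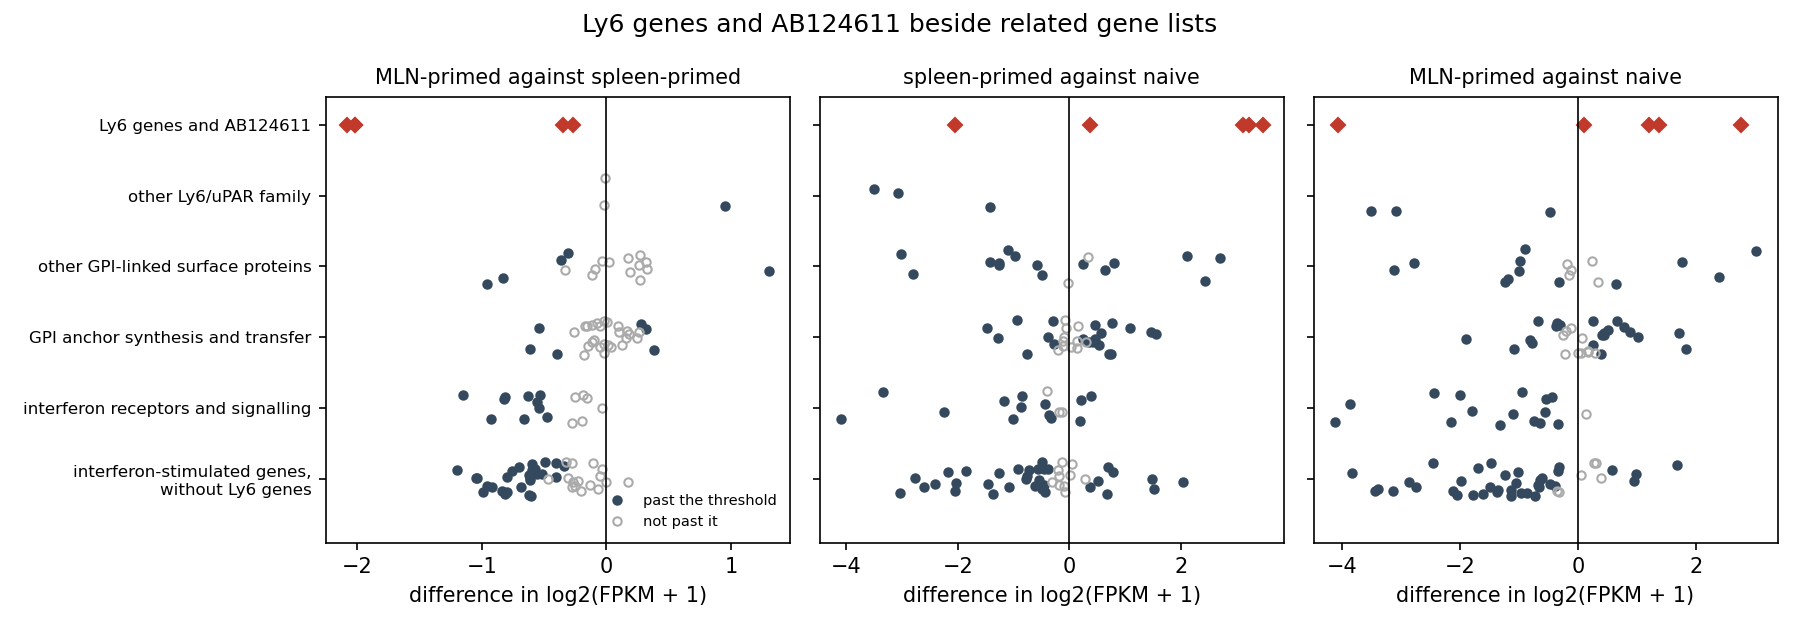
Differences in log2(FPKM + 1) of the members (diamonds) and of the tested genes of 5 related lists (circles, filled where the limma adjusted p was below 0.05), in 1 panel per comparison. In MLN-primed against spleen-primed cells 27 of 43 interferon-stimulated genes lie below 0 past the threshold and 0 above, where 13.1% and 17.3% of all tested genes do. Against naive cells Ly6c2, Ly6c1 and Ly6a lie to the right of most of the interferon-stimulated genes. The Ly6e diamond against naive cells turns negative under quantile normalisation, and for MLN-primed cells also under median-of-ratios scaling.

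Genes whose profile over the 9 libraries was most like that of a member are given as a description, by Pearson's r of log2(FPKM + 1). The libraries form 3 groups, so a high r mainly says that the group levels are alike. For Ly6c2 they included Ly6c1 (r = 0.999) and Myl6 (0.987), a light chain of myosin. For Ly6c1 they were Ly6c2 (0.999), Myl6 (0.990) and Hist1h2bc (0.983). For Ly6a they were Cenpl, Fam110a and Rom1 (each 0.999), and Cenpl averaged 21.8 FPKM in MLN-primed, 27.7 in spleen-primed and 3.50 in naive cells. For Ly6e they were Rbms1 (0.978), Ppp3ca (0.973) and Bscl2 (0.967). For AB124611 they were Ctse (0.999), the gene of the protease cathepsin E, Sat1 (0.997) and Galnt10 (0.996), and Ctse averaged 84.9 FPKM in MLN-primed, 140.2 in spleen-primed and 245 in naive cells.

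Markers of other cell types were read beside the Ly6c genes, since monocytes also express Ly6C. In bulk libraries, fewer cells of a type and less RNA per cell cannot be told apart. The summed FPKM of 11 monocyte, macrophage and neutrophil markers was 44.7 to 50.9 in MLN-primed, 127.6 to 135.5 in spleen-primed and 7.46 to 48.6 in naive libraries. By mean this was the group order of Ly6c2, but the sums of MLN-primed and naive libraries overlapped, and not every gene of the list shared the order. In primed libraries Ccr2, Itgam and Cd68 carried most of the sum, while Cd14, Csf1r, Csf3r and Mpo were below 1 FPKM in all 9 libraries. S100a8 was at 0 in every MLN-primed library, at 0.150, 0.154 and 0 FPKM in the spleen-primed libraries, and at 1.82, 12.1 and 19.6 FPKM in naive 1, naive 2 and naive 3. Lyz2 measured 0.125, 0.219 and 0.165 FPKM in MLN-primed, 1.70, 0.495 and 0.389 in spleen-primed, and 2.12, 5.50 and 9.75 in naive libraries. Unlike the sum, S100a8 and Lyz2 were thus highest in naive cells. Within the naive group S100a8, Lyz2 and Ly6c2 were all lowest in naive 1. Ly6c2 was highest in naive 2, and S100a8 and Lyz2 in naive 3.

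Of the 12 endothelial and stromal markers, whose cells also express Ly6 genes, 11 stayed below 1 FPKM in all libraries, and Emcn and Pdpn were at 0. The list summed to 2.56 to 3.68 FPKM in MLN-primed, 3.21 to 4.61 in spleen-primed and 37.1 to 43.9 in naive libraries, nearly all of it Pecam1, which was at 37.0, 37.8 and 43.5 FPKM in the naive libraries. Dendritic cell markers summed to 50.8 to 62.0 FPKM in MLN-primed, 98.7 to 107.9 in spleen-primed and 82.4 to 147.6 in naive libraries. Itgax carried most of that sum in primed libraries, and Cd74, H2-Aa and H2-Ab1 in naive libraries, while Flt3, Zbtb46, Xcr1 and Clec9a were below 1 FPKM in all 9. Red cell and platelet markers summed to 0.387 to 60.1 FPKM in MLN-primed, 3.10 to 30.3 in spleen-primed and 8.65 to 57.5 in naive libraries, mostly globin genes. The sums of B cell markers were at most 15.1 FPKM and those of CD4 T cell markers at most 43.7 FPKM in any library, with Cd4 at most 0.269 FPKM. NK cell markers summed to 1789 to 2099.9 FPKM in MLN-primed, 2272 to 3098 in spleen-primed and 178 to 233 in naive libraries, mostly Gzma in primed libraries, and the defining NK gene Ncr1 did not exceed 0.543 FPKM. The part of other cells in the member values was not tested. Ccl5, a chemokine gene chosen after its values were seen, measured 273, 447 and 505 FPKM in MLN-primed, 1966, 2236 and 2152 in spleen-primed, and 68.1, 253 and 130.0 in naive libraries. Ccl5 thus shared with Ly6c2 the order of groups and the order within naive libraries, but it was lowest in MLN-primed 1, where Ly6c2 was highest.

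A dependence on transcript length also set libraries apart. Over 10087 genes the slope of the centred log2 value per doubling of length was lowest in MLN-primed 1, at -0.0888, and highest in spleen-primed 3, at 0.0779. Without both of them the difference of MLN-primed against spleen-primed cells was -2.37 for Ly6c2, -0.46 for Ly6a and -0.18 for Ly6e, and Ly6a then passed the threshold and Ly6e did not. Leaving them out does not remove the length trend. The remaining slopes were 0.0625 and 0.0263 in MLN-primed and -0.0507 and -0.0272 in spleen-primed libraries. The values were centred within each group, so the slopes cannot show a length dependence between groups.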

How the data were processed

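Stranded mRNA libraries of 9 OT-I samples were analysed from 1 table in which the authors deposited FPKM per gene and library, for which the submitters' processing notes name TopHat, Cufflinks and build mm10, without a version, filter or strand setting. FPKM hide read depth, and fragments shared by near-identical genes are divided by the quantifier. A second table, identical to the first, and 131 rows without a symbol (0.0479% of the FPKM) were left out.

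The 10185 genes that reached 1 FPKM in 3 or more libraries were fitted as log2(FPKM + 1), which understates changes of low genes, in one model with limma 3.58.1 (R 4.3.3, variance trend). Tests were two-sided, and p-values were adjusted by Benjamini-Hochberg over all these genes, at 0.05. The fit was tested on simulated data. Tables were made in Python 3.11.15 (pandas 2.3.3, numpy 2.4.6) and figures with matplotlib 3.10.9. Groups come from sample titles. Deviations from the group means correlated in all 3 same-numbered pairs of spleen-primed and naive libraries (r = 0.160, 0.116 and 0.236). Differently numbered pairs of these 2 groups reached 0.057 at most, but those over all groups ran from -0.698 to 0.512. The labels give no pairing, so these numbers were not taken as a known pairing, and the main fit had no block. Adding the number as a block changed no call of a member in spleen-primed against naive cells.

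The members and the gene lists were chosen with earlier results of these data known. Named are the members, from each list up to 4 genes per direction and comparison with the largest differences past the threshold, list genes with a mean of at least 50 FPKM in any group, the highest or defining markers of other cell types, and the 3 genes most like each member. Ccl5 was added after its values were seen. Some results that meet these rules are not reported here. Alternatives were a pseudocount of 0.1, no filter or a filter of 5 FPKM, other scalings and variance models, only the libraries compared, the replicate number as a block, libraries left out, and Ly6c1 and Ly6c2 summed. Positions and promoters come from RefSeq tables and coding sequences from the GENCODE annotation, both of GRCm38.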

Additional observations from a re-analysis of the deposited data

How the results depend on the processing

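A changed filter or variance model, the replicate number as a block, or leaving out libraries outside a comparison cannot move a member's difference. Part of the agreement counted next was therefore fixed in advance. Of 291 differences of the members under the alternatives, 279 kept their direction and moved by less than the spread between replicates, 9 moved further and 3 changed sign. The 3 are Ly6e in MLN-primed against naive cells, at -0.060 under median-of-ratios scaling and -0.53 under quantile normalisation, and Ly6e in spleen-primed against naive cells, at -0.33 under quantile normalisation; the cause was not tested. These scalings also moved the median log2 difference of all genes, in spleen-primed against naive cells to -0.01 and -0.07 in place of 0.10, and in MLN-primed against naive cells to -0.01 and -0.04 in place of 0.15. Leaving out 1 library at a time gave 1255 to 1807 genes higher and 884 to 1389 lower in MLN-primed against spleen-primed cells, the lowest without spleen-primed 2. In the comparisons with MLN-primed cells the numbers were not taken to pair the libraries either. MLN-primed 2 deviated against its namesakes (r = -0.240 with spleen-primed 2 and -0.241 with naive 2). For numbers 1 and 3, however, r was 0.645 and 0.485 with spleen-primed and 0.145 and 0.116 with naive libraries. With the replicate number as a block, 1942 genes were higher and 1440 lower in MLN-primed against spleen-primed, 4480 and 3448 in spleen-primed against naive, and 4717 and 3490 in MLN-primed against naive cells, and among the members only the call of Ly6a in MLN-primed against spleen-primed cells changed, to passing. Of 570 counts of list genes under the alternatives, 26 moved by over 1.5 times, and none of these 26 was above 8 as first counted. Depth is unknown, so no counting error can be given, and 3 libraries a group limit the precision.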
